A study of Mus musculus with 2 samples.

Results

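Lipins and their partner enzymes of hepatic triglyceride synthesis and lipolysis were examined by spatial transcriptomics (ST) in 2 liver sections, 1 from an AEG-1ΔMAC mouse and 1 from an AEG-1fl/fl mouse. The members were 10 of the 19465 genes in the count tables, chosen by symbol: Lpin1, Lpin2, Lpin3, Gpam, Agpat2, Dgat1, Dgat2, Mogat1, Pnpla2 and Pnpla3. AEG-1ΔMAC mice (AEG-1DMAC in the labels) lack AEG-1, the protein encoded by Mtdh, in myeloid cells only, because the floxed gene is cut by a Cre recombinase driven from the Lyz2 locus. AEG-1fl/fl mice carry the same floxed alleles and served as controls, so hepatocytes of both genotypes keep the gene. Both livers came from mice 27 weeks old, and both libraries carry the label of a high-fat, high-sugar diet (HF/HSD) started at 7 weeks, that is, for 20 weeks. The study's own account of this assay speaks of littermates on control diet, so the diet of these animals could not be settled, although both libraries carry the same label. Sections were fixed in formalin, embedded in paraffin and placed on the same slide. Below, these are called the knockout and the control section. With 1 library per genotype, the genotypes cannot be told apart from the mice, and no test was run.

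Triglyceride is built in hepatocytes along the glycerol 3-phosphate pathway. Glycerol 3-phosphate is acylated first by GPAT1, which Gpam encodes, and then by AGPAT enzymes such as AGPAT2, to give phosphatidate. Lipins are the phosphatidate phosphatases of this pathway, and they turn phosphatidate into diacylglycerol, the branch point between triglyceride and the main phospholipids. Lipin-1 has a further role in the nucleus as a coactivator of fatty acid oxidation genes with PGC-1α and PPARα, and it is known to be induced in liver by fasting and by glucocorticoid. DGAT1 and DGAT2 add the last acyl chain, MGAT1 (Mogat1) makes diacylglycerol from monoacylglycerol, and ATGL (Pnpla2) starts lipolysis. PNPLA3 is a lipid droplet protein of the same family as ATGL.

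Counts are unique molecular identifiers (UMIs), each standing for a captured pair of probes, and levels are counts per 1000000 UMIs of a library (CPM). There were 2140 knockout spots with 45453286 UMIs and a median of 20929.5 UMIs per spot. There were 2540 control spots with 50322850 UMIs and a median of 18285. A spot is a small region holding several cells, so fewer cells of a type and less RNA per cell cannot be told apart. Spots are no replicates, and all intervals are 95% intervals that cover counting error only. Probes of different genes bind with different efficiency, so each gene's level was set against its own level in the other library. Differences between genes were read as a ratio of ratios, in which probe efficiency cancels. Where UMIs of different genes are set side by side or summed, the values also carry the efficiency of their probes. Mtdh, the targeted gene, had 66.3 CPM in the knockout and 60.2 CPM in the control, values that cannot check a deletion in myeloid cells, since a spot sums all its cells.

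The libraries differed in ways that touch every ratio below. Over the 6933 genes that averaged at least 10 CPM, the median log2 ratio of knockout over control was 0.15, with 5th and 95th percentiles of -0.29 and 0.54, so ratios are also given relative to that median. Albumin (Alb) took 8.80% of UMIs in the knockout and 14.2% in the control. The sum of the 3 markers of zone 3, the pericentral (PC) zone, was 8543 against 3498 CPM, a log2 ratio of 1.29, and that of the 6 markers of zone 1, the periportal (PP) zone, was 7060 against 5979 CPM. The tissue was liver as labelled, with 5 hepatocyte markers at 142642 and 205276 CPM in sum, and the 5 adipocyte markers together had 7 and 9 UMIs, with leptin (Lep) at 0 in both. The libraries shared 1782 spot barcodes, because capture areas carry the same set of barcodes.

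Of the members, Lpin1 stood apart. It was 4.33-fold higher in the knockout, while its paralog Lpin2 was 1.26-fold higher and Lpin3 did not differ beyond counting error. Gpam went the other way and was 1.69-fold higher in the control, and Dgat2 was 1.46-fold higher in the knockout. Agpat2 and Pnpla2 lay near the median of all genes. Mean levels of 6 of the 10 members reached 10 CPM, and of these only Lpin1 had a ratio of at least 2 with an interval on the same side, against 1.79% of all genes compared (1.27% higher and 0.519% lower). At a ratio of at least 1.5, Lpin1 and Gpam were counted, against 6.09% of all genes (4.3% higher and 1.79% lower). The 6 members had a median log2 ratio of 0.28, and 5 of them lay above the median of all genes. Lpin3, Dgat1, Mogat1 and Pnpla3 were under 10 CPM and are given as values.

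**Figure D1:**
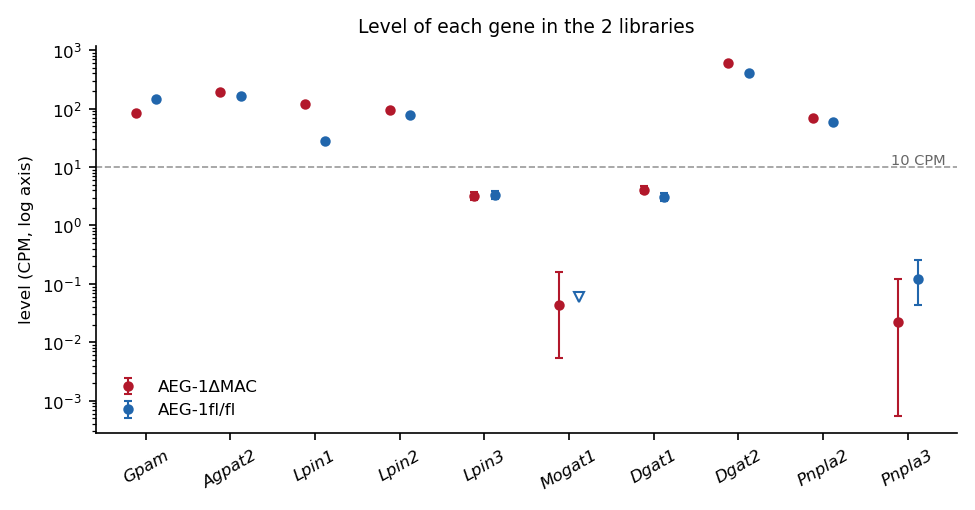
Level of each member in CPM on a log axis, in the knockout (AEG-1ΔMAC, red) and the control (AEG-1fl/fl, blue), ordered by step of the pathway. Bars are exact Poisson 95% intervals, smaller than the point for most genes, the open triangle marks the level of 3 UMIs for a gene with 0 UMIs, and the dashed line is 10 CPM. Lpin1 (119 against 27.6 CPM) and Gpam (84.9 against 143 CPM) show the widest gaps among genes above the line, in opposite directions.

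The pair of lipins with the most UMIs in these sections was described first. Lpin1 (ENSMUSG00000020593) lies on chromosome 12, from 16535669 to 16610966 on the minus strand of GRCm38, and Lpin2 (ENSMUSG00000024052) on chromosome 17, from 71182560 to 71249817 on the plus strand. Both are protein-coding. The 250 bases before a RefSeq start site are shown for each, since both had more UMIs than Lpin3 in each library. The Lpin1 window borders the annotated gene, while the Lpin2 window lies within the annotated bounds of Lpin2. Overlap with exons of other transcripts was not tested. The Lpin1 window, chr12:16610967-16611216 on the minus strand, is the single Lpin1 window in the table used, and that of Lpin2, chr17:71183282-71183531 on the plus strand, is the first of 3. Capitals mark an E-box, CACGTG.
Lpin1: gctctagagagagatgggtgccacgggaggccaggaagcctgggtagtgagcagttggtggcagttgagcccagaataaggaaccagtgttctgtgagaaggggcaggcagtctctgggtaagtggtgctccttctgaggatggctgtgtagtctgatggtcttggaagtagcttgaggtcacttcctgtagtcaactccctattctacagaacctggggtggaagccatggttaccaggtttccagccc
Lpin2: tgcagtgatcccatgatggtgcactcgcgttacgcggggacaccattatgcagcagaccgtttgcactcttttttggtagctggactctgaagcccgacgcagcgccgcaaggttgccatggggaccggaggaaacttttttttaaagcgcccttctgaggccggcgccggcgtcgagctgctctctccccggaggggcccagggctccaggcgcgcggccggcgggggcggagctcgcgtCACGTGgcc
Both strands were searched for CACGTG, the D-box TTATGTAA, the cAMP response element TGACGTCA, its 5-base core TGACG, and the glucocorticoid response element, with AGAACA and TGTTCT 3 bases apart. The Lpin1 window held none of these motifs in full. It did hold TGTTCT on its own, but AGAACA or TGTTCT alone was not searched for in any window. The Lpin2 window held the E-box, which 6.02% of 32851 promoter windows of this length hold, and 1 TGACG, on the other strand and overlapping the E-box, found in 17.8% of windows. Windows were found for 8 of the 10 members, and Lpin3 had no match in either of its 2 windows. A full cAMP response element, present in 1.55% of windows, was found among the members in the Pnpla3 window alone. The D-box was in 0.819% of windows and the glucocorticoid element in 0.00913%, and no member's window held either. These are matches of letters, not measured binding.

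Lpin1, the phosphatidate phosphatase with the added nuclear role, had 5430 UMIs in the knockout, or 119 CPM (95% Poisson interval 116 to 123). In the control it had 1388 UMIs, or 27.6 CPM (26.1 to 29.1). The intervals were far from overlapping, and the log2 ratio was 2.11 (2.03 to 2.20), or 1.97 relative to the median of all genes. Of the 6933 genes compared, 12 had a higher ratio. Among the members, the next highest ratio above 10 CPM was that of Dgat2 at 0.55. Lpin2, the lipin with the most UMIs of the family in the control liver, had 4369 UMIs and 96.1 CPM (93.3 to 99.0) in the knockout against 3853 UMIs and 76.6 CPM (74.2 to 79.0) in the control. Its log2 ratio of 0.33 (0.27 to 0.39) was 0.18 relative to the median of all genes, and 83.4% of genes had a lower ratio. Lpin3 (ENSMUSG00000027412, chromosome 2, 160880670 to 160906002, plus strand), the least studied of the lipins, had 144 and 168 UMIs, or 3.17 CPM (2.67 to 3.73) and 3.34 CPM (2.85 to 3.88). The log2 ratio was -0.08 (-0.41 to 0.25), so a difference was not detectable at this depth.

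The make-up of the lipin family followed from these values. In the knockout, 54.6% of all lipin UMIs (exact binomial 95% interval 53.6 to 55.6) were Lpin1, 43.9% were Lpin2 and 1.45% were Lpin3. In the control, Lpin1 took 25.7% (24.5 to 26.8), Lpin2 71.2% and Lpin3 3.11%. The paralog with more UMIs was therefore Lpin1 in one section and Lpin2 in the other, although shares within a library also carry the efficiency of each gene's probes. The ratio of ratios is free of that, and of the scaling between libraries. Lpin1 against Lpin2 was 1.24 UMIs per UMI in the knockout and 0.360 in the control, a 3.45-fold difference (exact conditional interval 3.20 to 3.71). Lpin3 against Lpin2 was 0.0330 and 0.0436, a log2 ratio of ratios of -0.40 (-0.74 to -0.07), and Lpin1 against Lpin3 was 37.7 and 8.26, a log2 ratio of ratios of 2.19 (1.85 to 2.53). The sum of the 3 lipins was 219 CPM in the knockout and 107 CPM in the control, a log2 ratio of 1.03 (0.98 to 1.07), with most of the difference in Lpin1. Each lipin enters this sum weighted by the efficiency of its probes, so the ratio of the sum depends on it.

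The acylation steps ahead of the lipins differed less, and in both directions. Gpam (ENSMUSG00000024978, chromosome 19, 55067268 to 55127238, minus strand), the mitochondrial enzyme of the committed step, had 3861 UMIs and 84.9 CPM (82.3 to 87.7) in the knockout against 7219 UMIs and 143 CPM (140 to 147) in the control. The log2 ratio was -0.76 (-0.81 to -0.70), or -0.90 relative to the median of all genes, and 0.995% of genes had a lower ratio. Agpat2 (ENSMUSG00000026922, chromosome 2, 26593057 to 26604417, minus strand), which makes phosphatidate, had 191 CPM (187 to 195) against 164 CPM (161 to 168). Its log2 ratio of 0.22 (0.17 to 0.26) was 0.07 relative to the median. The ratio of Agpat2 to Gpam UMIs was thus 2.25 in the knockout and 1.15 in the control, a log2 ratio of ratios of 0.97 (0.90 to 1.04). Lpin1 and Gpam, the members at either end, were 1.41 UMIs per UMI in the knockout and 0.192 in the control, 7.31-fold apart (6.81 to 7.86).

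Of the enzymes that acylate diacylglycerol or monoacylglycerol, Dgat2 had by far the most UMIs. Dgat2 (ENSMUSG00000030747, chromosome 7, 99153658 to 99182719, minus strand), which works mainly on newly made fatty acids, had 26902 UMIs and 592 CPM (585 to 599) in the knockout, and 20386 UMIs and 405 CPM (400 to 411) in the control. The log2 ratio was 0.55 (0.52 to 0.57), or 0.40 relative to the median, and 95.1% of genes had a lower ratio. Dgat1 (ENSMUSG00000022555, chromosome 15, 76502015 to 76511953, minus strand), which also re-esterifies fatty acids taken up from outside, had 186 and 154 UMIs, or 4.09 CPM (3.53 to 4.72) and 3.06 CPM (2.60 to 3.58). The log2 ratio was 0.42 with a wide interval (0.10 to 0.74). The balance of Dgat2 to Dgat1 differed between genotypes by 0.13 on the log2 scale with an interval from -0.19 to 0.44, which holds 0. Mogat1 (ENSMUSG00000012187, chromosome 1, 78510991 to 78538173, plus strand) had 2 UMIs in the knockout and 0 in the control. Both are under the floor of 3 UMIs (0.0660 and 0.0596 CPM), so no fold is given.

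On the lipolysis side, Pnpla2 (ENSMUSG00000025509, chromosome 7, 141455198 to 141460743, plus strand), which encodes ATGL, had 3135 UMIs and 69.0 CPM (66.6 to 71.4) in the knockout against 2959 UMIs and 58.8 CPM (56.7 to 61.0) in the control. The log2 ratio of 0.23 (0.16 to 0.30) was 0.08 relative to the median of all genes. Pnpla3 (ENSMUSG00000041653, chromosome 15, 84167837 to 84187236, plus strand) had 1 UMI in the knockout and 6 UMIs in the control. The log2 ratio was -2.44 (-7.96 to 0.60), so these counts do not separate the libraries. Partners of ATGL differed in opposite directions. G0s2, the inhibitor that binds and blocks ATGL, had 25.7 CPM in the knockout and 58.5 CPM in the control, a log2 ratio of -1.19 (-1.29 to -1.09). The ratio of Pnpla2 to G0s2 UMIs was 2.69 against 1.01, 2.67-fold apart (2.45 to 2.91). Abhd5, the coactivator of ATGL, had 46.4 against 35.1 CPM, or 0.40 (0.31 to 0.50) as a log2 ratio.

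**Figure D2:**
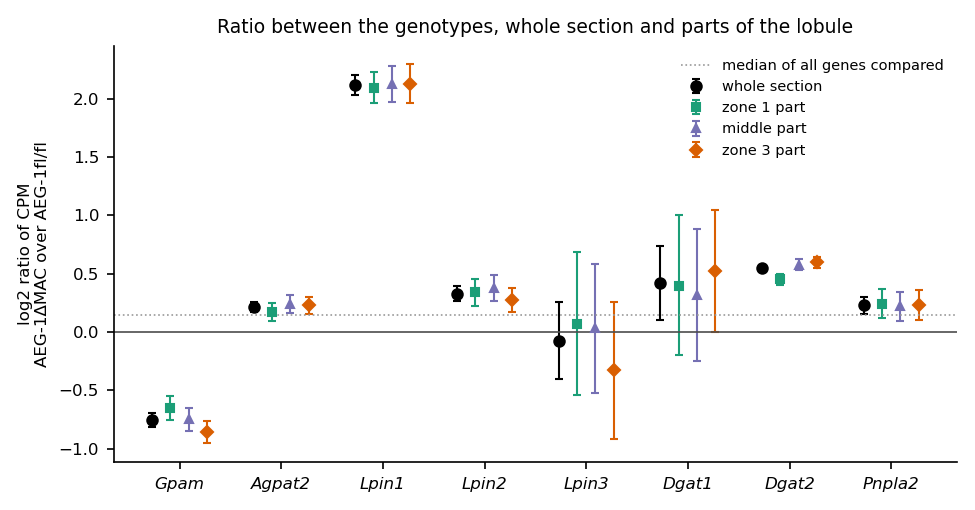
Log2 ratio between the genotypes (CPM in the knockout over CPM in the control) of the 8 members with a mean above 1 CPM, over the whole section (black) and by part of the lobule (zone 1, middle and zone 3). Bars are exact conditional 95% intervals and the dotted line is the median of all genes compared, 0.15. Lpin1 lies between 2.10 and 2.13 in all 3 parts, while Gpam runs from -0.65 in the zone 1 part to -0.86 in the zone 3 part.

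To place the members along the lobule, spots of each library were ranked on a zone index, zone 3 markers (Cyp2e1, Cyp1a2 and Oat) minus zone 1 markers (Arg1, Cyp2f2, Gls2, Hal, Hsd17b13 and Pck1), and cut into 3 equal parts and into 10 bins. No member is a marker. Landmark genes that did not enter the index followed it: the 8 zone 1 landmarks had a median log2 ratio, zone 3 part over zone 1 part, of -1.26 (knockout) and -0.89 (control), and the 6 zone 3 landmarks of 2.34 and 2.31. Because each library was ranked by itself, the parts need not cover the same positions. With common cut points, 43.7% of knockout spots and 24.6% of control spots fell in the zone 3 part. Those cut points rest on the markers themselves, and the zone 3 markers summed higher in the knockout, by a log2 ratio of 1.29. The shares therefore cannot tell position in the lobule from marker level.

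Lpin1 was periportal in both genotypes. From the zone 1 to the zone 3 part it had 146, 110 and 102 CPM in the knockout, and 34.2, 25.2 and 23.4 CPM in the control. The zonation, as the log2 ratio of zone 3 part over zone 1 part, was -0.52 (-0.61 to -0.42) and -0.55 (-0.74 to -0.36). These values lay outside the middle 90% of all genes, whose 5th percentiles were -0.34 and -0.29, with 2.38% and 1.93% of genes below Lpin1. The difference in zonation between genotypes was 0.03 (-0.18 to 0.25), so the slope along the lobule did not differ beyond counting error, while the level differed throughout. The log2 ratio between genotypes was 2.10, 2.12 and 2.13 in the 3 parts, and 0.894% of genes were at least 2-fold higher in all 3. With common cut points these values were 2.24, 2.27 and 2.15. Over 10 bins it ran from 1.95 in bin 2 to 2.38 in bin 10, at the zone 3 end. Levels ran from 186 CPM in bin 1 to 91.6 CPM in bin 9 in the knockout, and from 39.2 CPM in bin 1 to 18.7 CPM in bin 10 in the control. Every knockout bin lay above every control bin, as was so for 7.7% of genes.

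Lpin2 ran the opposite way along the lobule. Over the same 3 parts it had 85.6, 93.7 and 109 CPM in the knockout, and 67.6, 72.2 and 90.3 CPM in the control. Its zonation was 0.35 (0.24 to 0.46) and 0.42 (0.30 to 0.53), with 90.4% and 94.3% of genes below it, and the difference between genotypes was -0.07 (-0.22 to 0.09). In both libraries its highest level was in bin 10, with 121 and 110 CPM. The pericentral end therefore held the most Lpin2 and the periportal end the most Lpin1. Lpin1 UMIs per Lpin2 UMI went from 1.71 in the zone 1 part through 1.17 to 0.937 in the zone 3 part of the knockout, and from 0.506 through 0.349 to 0.259 in the control. This change over the lobule was -0.87 (-1.01 to -0.73) and -0.97 (-1.19 to -0.74) on the log2 scale. The lowest Lpin1 to Lpin2 ratio of the 3 parts in the knockout was still above the highest in the control. Lpin3 had 2.93 to 3.52 CPM over the parts of the knockout and 2.90 to 3.67 CPM over those of the control, and both zonation intervals held 0.

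**Figure D3:**
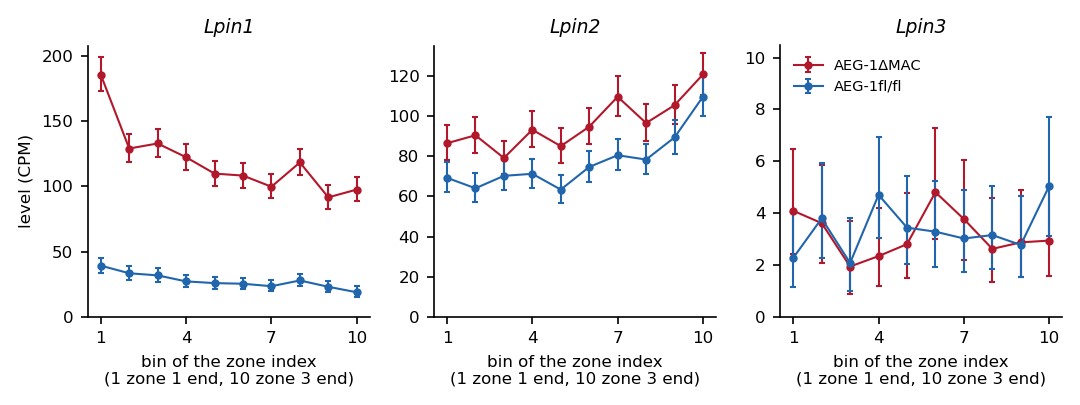
Level of Lpin1, Lpin2 and Lpin3 in CPM over 10 equal bins of the zone index, from the zone 1 end (bin 1) to the zone 3 end (bin 10), in the knockout (AEG-1ΔMAC, red) and the control (AEG-1fl/fl, blue), with exact Poisson 95% intervals; each panel has its own axis from 0. Lpin1 is highest in bin 1 of both libraries (186 and 39.2 CPM) and Lpin2 in bin 10 (121 and 110 CPM), and Lpin3 stays between 1.94 and 5.05 CPM with overlapping intervals.

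The zonation of the remaining members was described next. Dgat2 had 523, 590.4 and 663 CPM over the 3 parts of the knockout and 383, 395 and 438 CPM in the control, a zonation of 0.34 (0.30 to 0.38) and 0.20 (0.15 to 0.25). The difference of 0.15 (0.08 to 0.21) excluded 0, and the log2 ratio between genotypes was 0.45, 0.58 and 0.60 in the 3 parts. With common cut points the zonation was 0.33 and 0.24, closer together, and the ratio 0.44, 0.48 and 0.53 in the 3 parts. With an index of landmark genes the zonation was 0.34 and 0.25. Its bins did not overlap between libraries, with 516 to 711 CPM in the knockout and 369 to 475 CPM in the control, and 7.7% of genes were apart in this direction. Gpam had 83.0, 83.0 and 88.8 CPM over the parts of the knockout and 130.2, 139 and 161 CPM over those of the control. It was thus pericentral in the control, at 0.31 (0.23 to 0.39). In the knockout no zonation was detectable beyond counting error, at 0.10 (-0.01 to 0.21), and the difference was -0.21 (-0.35 to -0.07). With common cut points the zonation was 0.08 (knockout) and 0.33 (control), and with an index of landmark genes 0.10 and 0.34. With the outer 10% of spots at each end it was 0.20 and 0.37, closer together and above 0 in both. Every knockout bin of Gpam (79.0 to 98.1 CPM) lay below every control bin (126 to 171 CPM), as was so for 2% of genes.

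Agpat2 was mildly pericentral in both libraries, at 0.26 (0.18 to 0.33) and 0.20 (0.12 to 0.27), and its zonation differed by 0.06 (-0.05 to 0.17). Pnpla2 was flat, at -0.08 (-0.20 to 0.05) and -0.06 (-0.19 to 0.07), with 60.7 to 81.1 CPM over the bins of the knockout and 54.8 to 64.3 CPM over those of the control. Dgat1 leaned to zone 3, at 0.48 and 0.36, but with intervals from -0.04 to 1.01 and from -0.23 to 0.96 no zonation was detectable at this depth. Among the members above 10 CPM, Lpin1 was the only one with a zonation interval below 0 in either library.

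**Figure D4:**
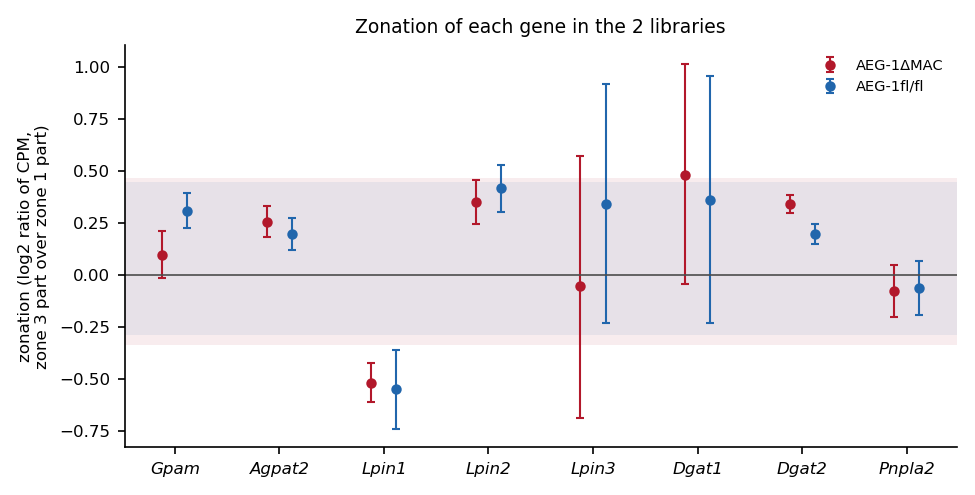
Zonation of the 8 members with a mean above 1 CPM, as the log2 ratio of CPM of the zone 3 part over the zone 1 part, in the knockout (AEG-1ΔMAC, red) and the control (AEG-1fl/fl, blue), with exact conditional 95% intervals. Shaded bands run from the 5th to the 95th percentile of all genes compared (-0.34 to 0.47 and -0.29 to 0.45). Lpin1 lies below both bands in both libraries (-0.52 and -0.55) and Lpin2 above 0 (0.35 and 0.42).

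The members were then followed from spot to spot, with each spot thinned to 10000 UMIs (2114 and 2434 spots; 26 and 106 shallower spots were left out). A UMI of Lpin1 was found in 66.3% of knockout spots (exact binomial interval 64.2 to 68.3) and 23.0% of control spots (21.3 to 24.7); without thinning the shares were 86.7% and 39.6%. Of 12 genes that liver should lack, Gfap had the highest shares, 0.142% and 0.370%, and 8 and 10 of the 12 had 0 UMIs, so Lpin1 was far above background in both. Its variance over spots was 1.10 and 1.05 times its mean at this depth, close to the value of 1 that counting alone gives, so Lpin1 was spread over the sections rather than held in a few spots. Lpin2 was in 61.5% and 52.5% of spots, Gpam in 56.3% and 75.5%, and Dgat2 in 99.7% and 98.0%. Agpat2 was in 84.8% and 79.4%, and Pnpla2 in 47.9% and 44.0%. Lpin3 (2.84% and 3.16%) and Dgat1 (3.88% and 3.20%) were sparse but above Gfap, while Mogat1 and Pnpla3 had shares no higher than that background.

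Spots in the upper 10% by markers of other cell types were set against the remaining spots of the same section. In spots rich in Kupffer cell markers, the resident macrophages among the cells targeted by the deletion, Lpin1 did not differ beyond counting error, with log2 ratios of 0.01 (-0.13 to 0.14) in the knockout and 0.02 (-0.26 to 0.30) in the control. The summed Kupffer cell markers themselves were 574 and 641 CPM. Lpin1 was higher in spots rich in cholangiocyte markers of the knockout, by 0.32 (0.20 to 0.44), and the control value of 0.19 had an interval from -0.06 to 0.43. It was lower in knockout spots rich in stellate cell markers, at -0.38 (-0.54 to -0.23), and endothelial markers, at -0.35 (-0.50 to -0.20). In the control those values were -0.19 and -0.12, with intervals that hold 0. Lpin3 reached 6.40 CPM in the cholangiocyte-rich spots of the knockout against 2.82 CPM elsewhere, from 28 UMIs, a log2 ratio of 1.18 (0.53 to 1.78), with 0.15 (-0.63 to 0.84) in the control. Dgat2 was lower in cholangiocyte-rich spots of both, at -0.26 (-0.32 to -0.19) and -0.22 (-0.29 to -0.15), and also in spots rich in Kupffer cell markers (-0.15 and -0.14) and smooth muscle markers (-0.22 and -0.10), with intervals below 0. Bile ducts lie in the portal tract, and none of these sets of spots, the stellate and endothelial ones included, was matched on the zone index. Lpin1 and Dgat2 differed along that index, so cell type and position in the lobule cannot be told apart here.

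The wider pathway was read from a list of 44 further genes, of which 34 reached 10 CPM on average. None was at least 2-fold higher in the knockout (1.27% of all genes were) and 1, G0s2, was at least 2-fold lower (0.519% of all genes). The median log2 ratio of the list was 0.09, against 0.15 for all genes, and 16 of the 34 lay above the latter. The ratio of Lpin1 lay above the highest value of this list. Near the middle of the list were Cdipt (phosphatidylinositol synthase; 39.3 against 37.6 CPM, 0.07), Hsd17b11 (a lipid droplet protein; 200.2 against 184 CPM, 0.12) and Mttp (which loads lipid onto lipoproteins; 176 against 171 CPM, 0.04). The following genes were singled out after their values were seen. Plpp1, Plpp2 and Plpp3, lipid phosphatases that do not belong to the lipin family, had log2 ratios of 0.32, -0.28 and 0.40. Chpt1, which takes diacylglycerol into phosphatidylcholine, had 119 against 70.9 CPM and 0.75 (0.69 to 0.81). Plin2, which coats lipid droplets, had 408 against 547 CPM and -0.42 (-0.45 to -0.40), and Tm6sf2, a factor in lipoprotein lipidation, -0.58 (-0.72 to -0.44). The highest value of the list, 0.95, was that of the carboxylesterase Ces3b, while Ces3a of the same family was at 0.20. Whether probes of these related genes bind each other's RNA was not tested, so the counts are uncertain to that extent.

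**Figure D5:**
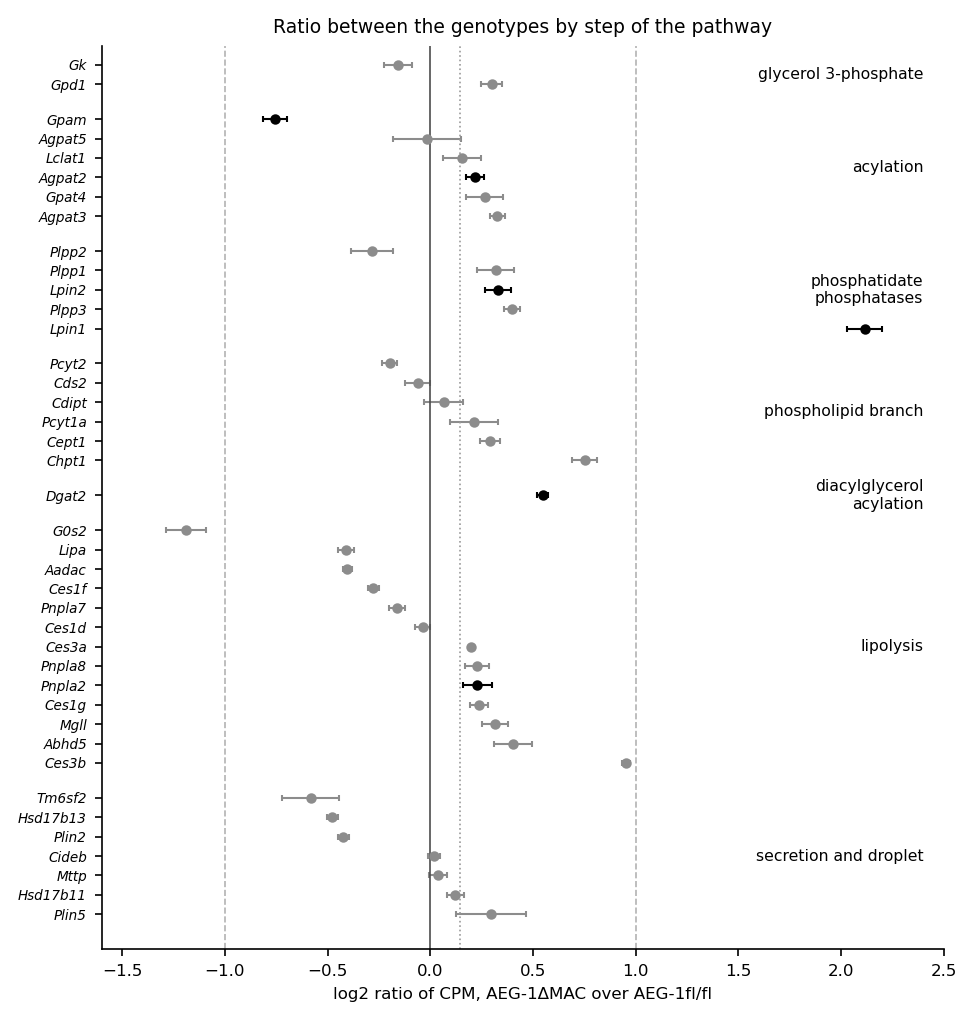
Log2 ratio between the genotypes (CPM in the knockout over CPM in the control) of the members (black) and the wider pathway list (grey) that averaged at least 10 CPM, grouped by step and ordered by ratio within a step, with exact conditional 95% intervals. Dashed lines mark a ratio of 2 in either direction and the dotted line the median of all genes compared. Lpin1 at 2.11 and G0s2 at -1.19 are the 2 genes beyond the dashed lines.

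Known regulators of lipins mostly lay near the median of all genes, apart from the clock genes Nr1d1 and Arntl. Of 18 regulators in the files, 16 reached 10 CPM on average, 1 was at least 2-fold higher (1.27% of all genes) and 0 were lower (0.519%), and the median log2 ratio was 0.17. The gene past that ratio was Nr1d1, which encodes the clock repressor REV-ERBα, with 76.3 against 28.6 CPM and 1.42 (1.33 to 1.51). Ctdnep1, the catalytic subunit of the phosphatase that activates lipins, had 12.8 against 9.76 CPM and 0.39 (0.21 to 0.56), and its partner Cnep1r1 had 29.1 against 30.7 CPM. Nr3c1, the glucocorticoid receptor, had 78.7 against 65.9 CPM and 0.26, Ppara 160.5 against 165 CPM and -0.04, and Ppargc1a, which encodes PGC-1α, 6.73 against 5.39 CPM and 0.32 (0.08 to 0.56). Rptor (0.19) and Kat5 (0.14), which act on lipin-1 through mTORC1 and acetylation, were nearest the median of the list.

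Genes that report the state of the animal were set beside Lpin1, because many of them differed in the same contrast. Of 6 clock genes that averaged at least 10 CPM, 4 were at least 2-fold higher in the knockout (1.27% of all genes). These were Nr1d1 (1.42), Nr1d2 (47.0 against 18.2 CPM, 1.37), Tef (31.7 against 12.6 CPM, 1.33) and Dbp. Dbp, an activator that binds D-boxes, had 17.5 against 2.58 CPM and 2.76 (2.49 to 3.04), and Per1 had 639 against 126 UMIs and 2.49 (2.21 to 2.78), both above 10 CPM in the knockout only. Npas2, at 4.73 against 11.2 CPM, was at -1.24 (-1.48 to -1.02). Arntl, in antiphase to Nr1d1, Nr1d2, Tef and Dbp in liver, had 30.7 against 50.3 CPM and -0.71 (-0.81 to -0.62). The gene Clock had 34.1 against 31.7 CPM and 0.11. Of 8 glucocorticoid-induced genes, 3 were at least 2-fold higher (1.27% of all genes): the MAP kinase phosphatase Dusp1 (105 against 24.4 CPM, 2.11), Zbtb16 (27.0 against 10.1 CPM, 1.42) and the receptor co-chaperone Fkbp5 (74.9 against 31.6 CPM, 1.24). Their list had a median of 0.52, with Sgk1 at 0.01 and Mt1 at -0.39, so its genes did not all point the same way. None of the 9 fasting-induced genes that averaged 10 CPM was past a ratio of 2, and their median was 0.18. The other 2 of that list were lower in the knockout, Pdk4 with 168 against 531 UMIs and -1.51 (-1.77 to -1.26), and Fgf21 with 162 against 509 UMIs and -1.50 (-1.77 to -1.25). Of 7 feeding-induced genes, Scd1, the main liver desaturase of saturated fatty acids, was at least 2-fold lower (0.519% of all genes), with 779 against 2401 CPM and -1.62 (-1.64 to -1.61), and the median was -0.33. The part of clock phase, glucocorticoid, fasting or feeding in the Lpin1 ratio was not tested. Y-linked genes were present in both libraries (1667 and 1626 UMIs of Ddx3y).

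Gene by gene, the profile most like that of Lpin1 over 20 points (10 bins in each of 2 libraries) was found by the root mean square difference of centred log2 CPM. Among the closest of 6932 genes were Errfi1 (0.187), Mup12 (0.285), Dusp1 (0.289) and Csrnp1 (0.293), where the median over all genes was 1.05. Errfi1, a feedback inhibitor of EGF receptor signalling, had 1525 against 376 CPM. Mup12 has near-identical gene copies, so its counts are uncertain. The search spanned both libraries, so their log2 ratios of 1.93 to 2.15 follow from the choice and are no separate result. Csrnp1 (17.2 against 4.51 CPM) was above 10 CPM in the knockout only. Lpin1 had a zonation of -0.52 in the knockout and -0.55 in the control. In the same order it was -0.10 and -0.62 for Errfi1, and -0.03 and -0.05 for Mup12. For Dusp1 it was -0.12 and 0.14, and for Csrnp1 -0.37 and -0.19. Closest to Lpin2 were Ldhd (0.0864), Shmt2 (0.0948), Mia3 (0.0949), Gstt1 (0.0974) and Mindy1 (0.0978), against a median of 0.244. Their log2 ratios between genotypes (0.33 to 0.36) and their zonation above 0 in both libraries follow from the same search and are no separate result.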

How the data were processed

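The authors ran a Visium assay for formalin-fixed, paraffin-embedded tissue on 1 liver section per genotype. Per the submitters' processing notes, reads were processed with Space Ranger 2.0.1 against mm10, and Seurat 4.3.0 was used later. Each deposited value is an unnormalised count, the UMIs of 1 gene in 1 spot. Groups came from the genotype labels.

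Spots with at most 50000 UMIs and from 100 to 7000 genes were kept (2140 of 2149 and 2540 of 2543). UMIs were summed per library and divided by the total to give CPM. Levels carry exact Poisson intervals, ratios and zonation exact conditional binomial intervals, and ratios of ratios exact conditional odds-ratio intervals (scipy 1.17.1, numpy 2.4.6, pandas 2.3.3, Python 3.11.15). At 10 CPM a gene had 454.5 (AEG-1ΔMAC) or 503.2 UMIs (AEG-1fl/fl). A gene was counted at a mean of at least 10 CPM and a ratio of at least 2 with its interval on the same side. The ratio, its interval and the fold rule were tested on counts simulated with counting error alone. Those simulated counts held no spread between mice, sections or spots.

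Every member was named. Of the other lists, genes past a ratio of 2 and up to 3 near the list's median were named, together with the 5 profiles most like Lpin1 and most like Lpin2, of which 1 is not reported here; others are stated as chosen after their values were seen, as were the ATGL coactivator Abhd5 and the regulators and state genes within a ratio of 2. The members and lists were chosen with earlier results of these data known. Alternatives were TMM factors (edgeR 4.0.16 in R 4.3.3, for factors only), median-of-ratios factors, a total without the 50 most abundant genes, other minima and folds, other zone cuts, and spots matched on depth. Coordinates are those of GENCODE M21 on GRCm38, the assembly of mm10 in another annotation release, and promoter sequences those of RefSeq on GRCm38.p6. Spot positions and images were not used.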

Additional observations from a re-analysis of the deposited data

How the results depend on the processing

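No paired analysis was possible because each genotype had 1 library. Of 79 values of the ratio between genotypes under other settings, 60 stayed within the counting interval, 19 moved and none changed sign. Lpin1 was 1.99 with TMM factors, 1.98 with median-of-ratios factors and 1.97 with the top 50 genes left out of the total, and Lpin2 was 0.20, 0.20 and 0.19. With these scalings the median of all genes was 0.02, 0.02 and 0.00. The ratios of ratios of the lipins moved in none of 6 values. With a ratio of 1.5, 1 member (Gpam) was lower, and 2 genes of the wider pathway were higher (Ces3b and Chpt1). At a mean of 50 CPM, 0 genes of the wider pathway were lower, since G0s2 was no longer compared. With the outer 10% of spots at each end, which stand further apart, the zonation of Lpin1 was -0.93 (knockout) and -1.06 (control), and that of Lpin2 was 0.48 and 0.66. Of 80 zonation values 4 changed sign, of Lpin3, Dgat1 (in both libraries) and Pnpla2, whose main intervals held 0. The Pnpla2 value, 0.14 in the knockout with the outer 10% of spots, lay outside its main interval (-0.20 to 0.05). Of 48 ratios by part 1 changed sign, of Lpin3. The share of spots with a UMI of Lpin1 follows depth by construction: 86.7% and 39.6% without thinning, and 43.0% and 13.0% at 5000 UMIs. Depth limits Lpin3, Dgat1, Mogat1 and Pnpla3, and no interval holds the spread between mice.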

Other observations

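Spots in the upper 10% by the share of Plin2 UMIs, a choice made after the data were seen, were set against the other spots of their section. Lpin1 had 117 CPM in these spots and 120 CPM elsewhere in the knockout, and 29.0 and 27.4 CPM in the control. Gpam had 81.9 and 85.3 CPM in the knockout and 150.2 and 143 CPM in the control. In the 6 members above 10 CPM on average, the intervals of these log2 ratios held 0 in both libraries, so none differed detectably with Plin2 within a section.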
